A study of Mus musculus with 4 samples.

Results

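The 42 genes described here carry fatty acids into the muscle fibre and burn them in its mitochondria. They were chosen by name: a peak belonged to the group when the authors' annotation gave 1 of these genes as the nearest. The annotation gave 17157 nearest genes in all. Of the 120839 peaks of the 4 lists, 368 belonged to the 42 genes, and each of the 42 genes held a peak in at least 1 list. The assay was ATAC-seq, in which the transposase Tn5 cuts accessible DNA and leaves sequencing adapters there. The fast, glycolytic muscles were EDL (the extensor digitorum longus) and Quad (the quadriceps). Sol, the soleus, is slow and oxidative, and Dia, the diaphragm, contracts with every breath. All came from sedentary wild-type mice, labelled C57BL/6. The methods name male C57BL/6J mice bought at 7 to 8 weeks of age, and the age at which the muscles for this assay were taken was not found in the sources used here. The study asked how the regulatory landscape differs between muscles, and here 1 library per muscle was analysed, each labelled as pooled, so that no test between muscles was possible.

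Lipoprotein lipase and its partners free fatty acids at the capillary wall, and carriers take them into the fibre. There they are either activated to acyl-CoA and moved into mitochondria through the carnitine shuttle, or stored as triglyceride in lipid droplets. In the mitochondrial matrix, beta-oxidation shortens the chain step by step and passes electrons through the electron transfer flavoprotein to the respiratory chain. Slow and respiratory muscles are known for relying on this route more than fast glycolytic muscles do.

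Because no list had a replicate, positions are described by presence and by rank. The score of a peak is the authors' tag count scaled to the size of the library, and its percentile is the percent of the peaks of the same list that score at or below it. Percentiles were not adjusted for list length, and over all promoter peaks their median was highest in Quad, the longest list. Where no peak is given, none was called, which is not evidence that the site was closed. The lists held 30136 (EDL), 40337 (Quad), 28784 (Sol) and 21582 (Dia) peaks, and the lowest-scored peak held between 25 and 36 tags. Of 16 myofibre genes, 11, 15, 12 and 9 held a peak in EDL, Quad, Sol and Dia, and the slow myosin gene Myh7 held 2 peaks in Sol and none in the other lists. Not every gene of this list followed fibre type. Myh4, the myosin of glycolytic fibres, held 1, 1, 1 and 0 peaks, Myh2 held 2, 2, 1 and 1, and Tnnt1 held 1, in Quad. Fewer cells of a type and less accessible DNA per cell cannot be told apart in whole muscle.

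Promoters of fatty acid genes were open in most muscles. A promoter peak was called for 35 (EDL), 36 (Quad), 33 (Sol) and 29 (Dia) of the 42 genes. Of 20996 protein-coding genes the shares with a promoter peak were 40.2% (EDL), 44% (Quad), 40.1% (Sol) and 39.4% (Dia), against 83.3%, 85.7%, 78.6% and 69% of the 42 genes. In all 4 lists, 28 of the 42 genes had a promoter peak, or 66.7%, against 32.1% of protein-coding genes. Counted by position, as any peak centred between 1 kb upstream and 100 bp downstream of a RefSeq start, the number was 31 of 42 against 38.5%. A promoter peak was found in 1 to 3 lists for 10 genes, and 4 genes had none by the authors' classes: Angptl4, Acsl5, Acsl6 and Acacb.

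The promoter peaks of the group ranked at or slightly above other promoters. Their median percentile was 76.5 (EDL), 86.2 (Quad), 80.1 (Sol) and 81.4 (Dia). Over all promoter peaks of the same lists the medians were 76.3, 81.3, 75.7 and 74.1. Peaks of the group away from promoters had medians of 50.7, 53.9, 48.0 and 49.2, against 38.3, 40.03, 38.2 and 34.1 over all non-promoter peaks.

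**Figure D1:**
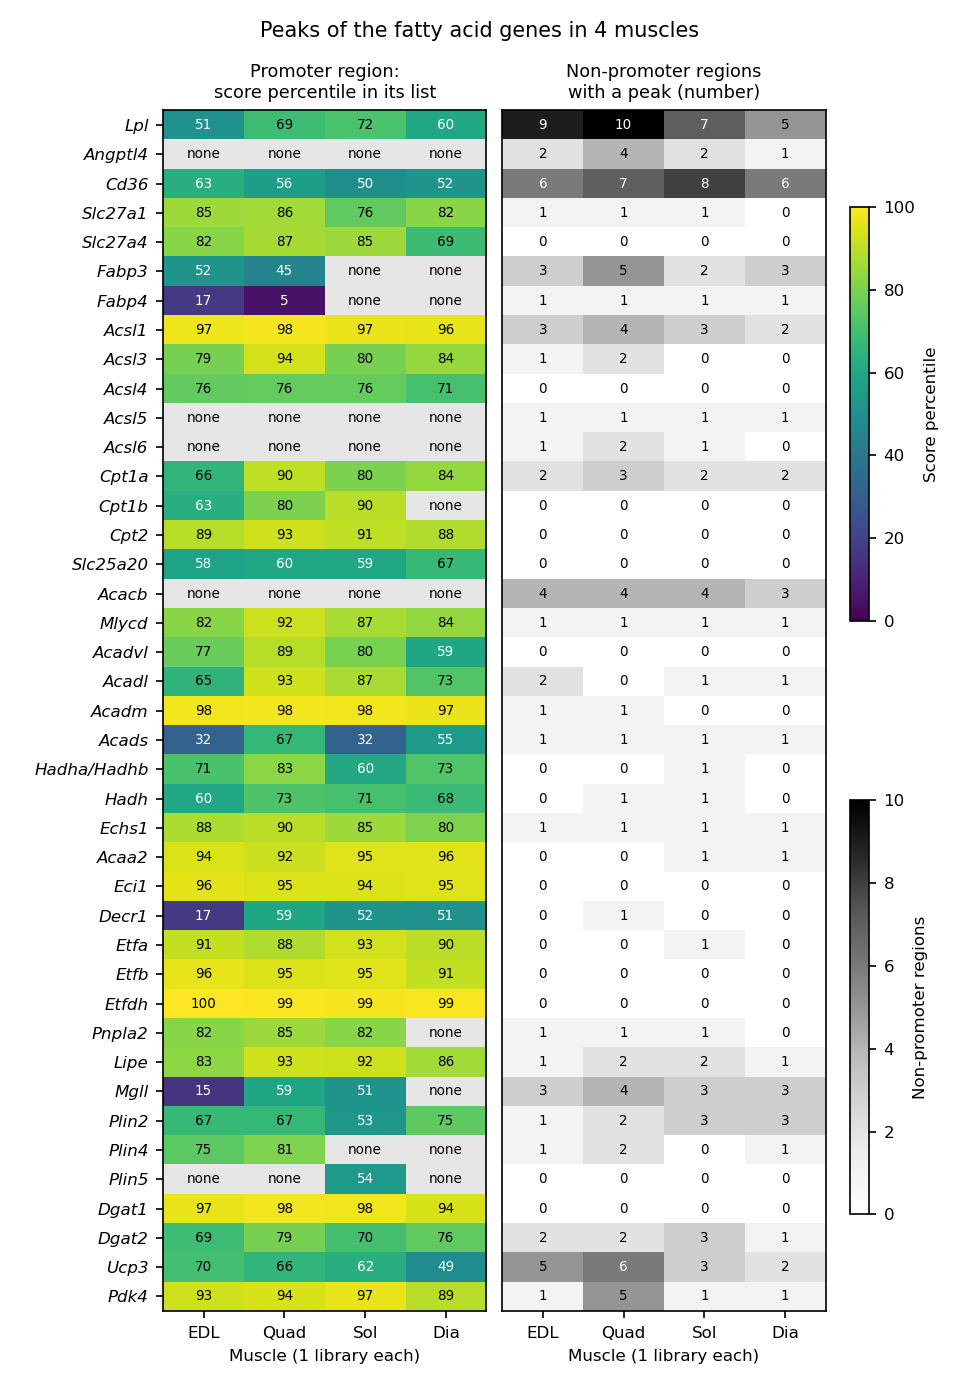
Left, the score percentile of the promoter region of each gene in each muscle, with the genes ordered by role and "none" where no peak was called; Hadha and Hadhb share 1 region. Right, the number of non-promoter regions of the gene with a peak in that muscle. Promoters such as Etfdh, Acadm and Dgat1 ranked above percentile 90 in every list, whereas Fabp3, Fabp4, Cpt1b, Pnpla2, Mgll, Plin4 and Plin5 had no promoter peak in at least 1 list, and Lpl and Cd36 held more of the other regions than any other gene.

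Uptake began with Lpl, which encodes the lipase that frees fatty acids from circulating lipoproteins and was among the genes with most peaks. Lpl had 10 (EDL), 11 (Quad), 8 (Sol) and 6 (Dia) peaks. Its promoter ranked at percentile 50.7 (EDL), 69.05 (Quad), 71.6 (Sol) and 59.98 (Dia). Further regions of Lpl, 5 in number, held a peak in every list, at 22.6, 28.3, 73.5, 95.4 and 96.8 kb downstream of the start. At 73.5 kb the Quad and Dia peaks did not overlap each other and were joined through those of EDL and Sol. The region 95.4 kb downstream ranked highest in Sol, at percentile 82.7, against 64.5 in EDL, 69.8 in Quad and 63.5 in Dia. Dia lacked the most distant region at 103 kb, which ranked at percentile 65.8 in EDL, 64.9 in Quad and 72.7 in Sol. Lpl also had 2 regions called in EDL and Quad alone, at 1.07 kb (percentiles 52.5 and 59.0) and 34.4 kb (24.0 and 20.8) downstream.

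Angptl4, a secreted inhibitor of the lipase, had no promoter peak, and its 1 region shared by all lists lay 2.09 kb downstream of the start. That region ranked at percentile 44.3 (EDL), 55.7 (Quad), 71.6 (Sol) and 68.1 (Dia). The order placed the slow soleus and the diaphragm above both fast muscles, but 1 library per muscle gives no error for it.

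Cd36 encodes the fatty acid translocase of the cell surface and had the most regions of any member, 14 in all. It held 8 (EDL), 8 (Quad), 11 (Sol) and 7 (Dia) peaks. Among the 20000 best-scored peaks of each list, Cd36 held 3, 3, 5 and 6, so that Dia went from fewest to most. An alternative start shared by every list ranked at percentile 44.3 (EDL), 55.7 (Quad), 49.99 (Sol) and 51.6 (Dia). A second promoter 13.8 kb downstream of it had a peak in EDL (62.51) and Sol (46.9), and the nearest Quad and Dia peaks lay 13557 and 13541 bp away. The highest rank of any Cd36 peak was this 62.51 in EDL, and the intron region shared by Quad, Sol and Dia stood at 4.7, 29.3 and 55.1.

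**Figure D2:**
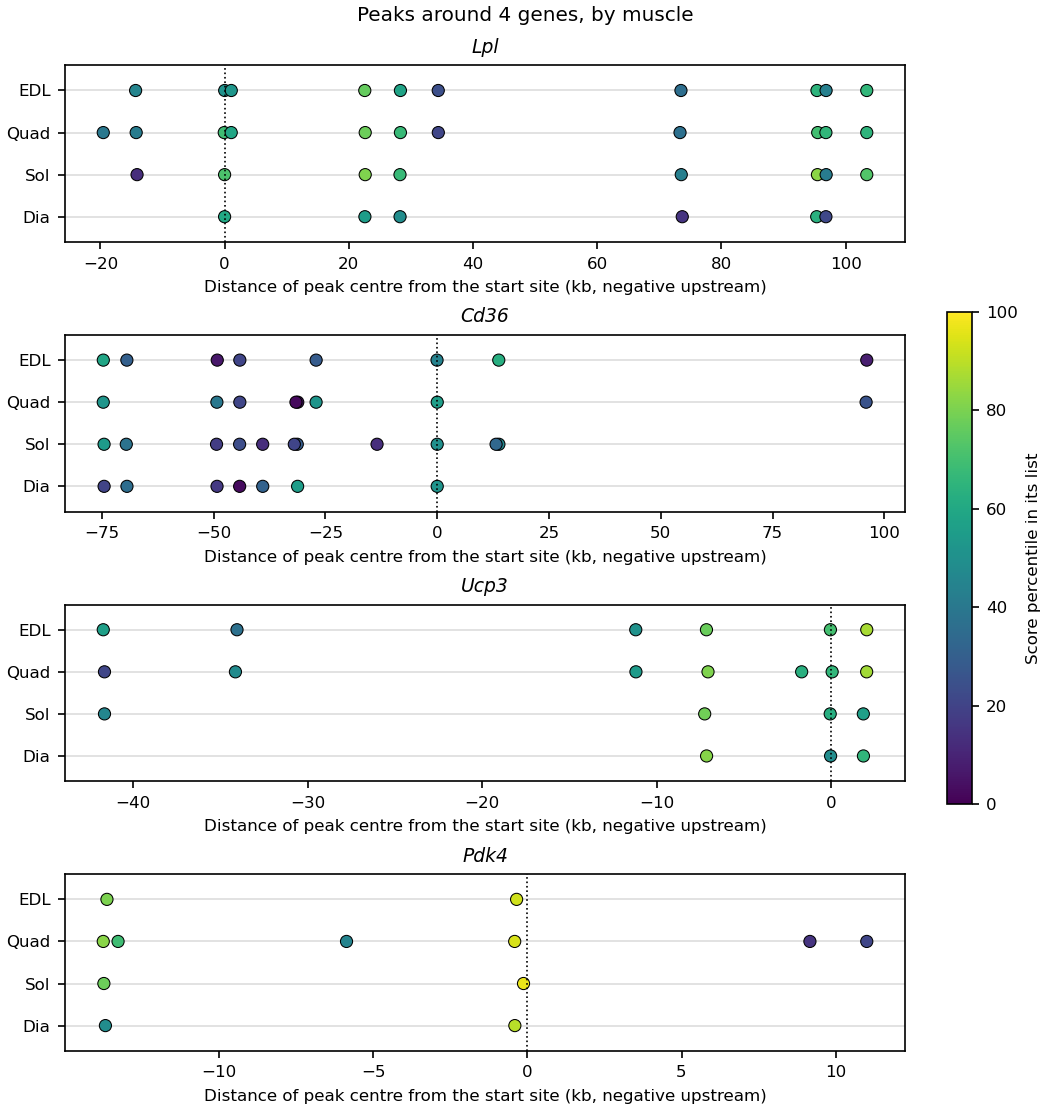
Each point is 1 peak of Lpl, Cd36, Ucp3 or Pdk4, placed by the distance of its centre from a start site of the gene (kb, negative upstream), with 1 row per muscle and the colour giving the score percentile in its list. Lpl peaks reached 103 kb downstream in EDL, Quad and Sol, the Cd36 start shared by every list lies at 0, Ucp3 had 7 peaks in Quad and 3 in Dia, and Pdk4 had 6 in Quad and 2 in each other list. The lists differ in length. Among the 20000 best-scored peaks of each list, Ucp3 held 6 (EDL), 5 (Quad), 4 (Sol) and 3 (Dia), and Pdk4 held 2, 3, 2 and 2.

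The fatty acid transport proteins Slc27a1 and Slc27a4 had a promoter peak in every list. Slc27a1 ranked between percentile 75.7 in Sol and 85.9 in Quad, and Slc27a4 between 68.7 in Dia and 86.5 in Quad. A region over exon 4 of Slc27a1 ranked at percentile 50.7 in EDL, 70.5 in Quad and 67.9 in Sol, with no Dia peak within 8953 bp.

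The fatty acid binding proteins differed by muscle at their promoters. Fabp3, the form abundant in heart and muscle, had a promoter peak in EDL (percentile 51.6) and Quad (45.0) only. Its nearest Sol peak lay 3977 bp away and its nearest Dia peak 1380 bp away. In contrast, the highest-ranked Fabp3 region, 9.36 kb upstream, held a peak in every list, at percentile 85.7 (EDL), 81.3 (Quad), 86.1 (Sol) and 72.5 (Dia). A region 1.85 kb upstream ranked at 56.1 in EDL, 54.5 in Quad and 54.2 in Dia, with no Sol peak. An intron region was called in Quad (52.1) and Sol (66.0). Fabp4, best known from adipocytes and capillary endothelium, had weak promoter peaks in EDL (17.1) and Quad (4.7) and none in Sol or Dia. Its region 5.26 kb upstream was called throughout, at percentile 78.0 (EDL), 77.5 (Quad), 79.2 (Sol) and 49.7 (Dia).

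Long-chain acyl-CoA synthetases activate the fatty acid, and Acsl1 had 1 start called in every list and another that was not. The main Acsl1 promoter was among the highest-ranked peaks of every list, at percentile 97.4 (EDL), 98.5 (Quad), 97.2 (Sol) and 96.4 (Dia). An internal start of Acsl1, at chr8:46490855-46491198 (mm10), ranked at percentile 72.7 in Sol, 45.3 in Dia and 13.7 in EDL, and the nearest Quad peak lay 10770 bp away. The scores there were 10.1 in Sol (95% Poisson interval 8.295 to 12.25), 7.05 in Dia (5.496 to 8.908) and 4.43 in EDL (3.24 to 5.903). These intervals cover counting error only. Other Acsl1 regions had other orders. The first-intron region 8.93 kb downstream stood at 88.2 in EDL and 90.1 in Quad against 69.3 in Sol and 70.4 in Dia. The region 49.35 kb upstream stood at 71.2 in Quad against 17.1 in EDL, 21.95 in Sol and 24.96 in Dia.

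The other synthetases had a promoter peak in every list or in none. Acsl3 ranked between percentile 79.4 in EDL and 93.6 in Quad, and Acsl4 between 70.9 in Dia and 76.4 in Quad. Upstream of Acsl3, at 44.6 kb, a Quad peak at percentile 74.6 had no counterpart, and the nearest EDL peak lay 1879 bp away. Acsl5 had no promoter peak by class, and its first-exon peaks fell at slightly different places by muscle. Sol and Dia peaks (26.2 and 45.3) shared a region that ended 21 bp before the region of EDL and Quad (38.3 and 69.8). Acsl6 had 1 shared intron region 21.5 kb downstream, at percentile 80.3 in EDL, 77.9 in Quad and 55.3 in Sol, and no Dia peak.

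The carnitine shuttle begins at carnitine palmitoyltransferase 1 of the outer mitochondrial membrane, of which Cpt1b is the muscle form. The Cpt1b promoter ranked lowest in EDL and highest in Sol, at percentile 63.2 (EDL), 80.4 (Quad) and 89.7 (Sol). The Cpt1b scores were 8.47 in EDL (95% Poisson interval 6.79 to 10.43), 11.4 in Quad (9.153 to 14.03) and 15.2 in Sol (12.93 to 17.75). Dia had no Cpt1b peak at all, and its nearest peak lay 3372 bp away. The 165 bases from the RefSeq start of Cpt1b to the upstream edge of the peaks, chr15:89425863-89426027 (mm10, minus strand), are shown because this was the only region of the gene, and capitals mark the bases under the peaks of EDL, Quad and Sol together.
Cpt1b: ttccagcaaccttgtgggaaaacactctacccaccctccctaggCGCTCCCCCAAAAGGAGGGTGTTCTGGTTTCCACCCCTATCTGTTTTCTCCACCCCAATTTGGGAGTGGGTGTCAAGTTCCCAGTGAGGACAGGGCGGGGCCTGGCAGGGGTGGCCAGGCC

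Cpt1a, the form best known from liver, had a promoter peak in every list. It ranked at percentile 65.8 (EDL), 90.3 (Quad), 80.3 (Sol) and 84.3 (Dia). A Cpt1a region 2.22 kb downstream was called in EDL (45.5) and Quad (63.95) only, and a region 10.2 kb downstream stood at 54.2 in Dia, 30.2 in Quad and 2.98 in EDL, with a Sol peak 108 bp away.

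The other parts of the shuttle had narrower ranges. Cpt2, the inner-membrane transferase, ranked between percentile 88.0 in Dia and 92.9 in Quad. Slc25a20, the carnitine-acylcarnitine carrier, ranked between 57.9 in EDL and 66.85 in Dia. Malonyl-CoA blocks the shuttle, and it is made at mitochondria by Acacb and removed by Mlycd. Acacb had no promoter peak in any list but held 2 of the highest-ranked non-promoter regions of the group, both in its introns. The first, 10.3 kb downstream of the start, ranked at percentile 92.7 (EDL), 94.4 (Quad), 95.8 (Sol) and 95.2 (Dia), and the second, 14.3 kb downstream, at 80.3, 85.6, 95.5 and 89.2. The Mlycd promoter ranked between 82.1 in EDL and 92.3 in Quad. Its intron held a Sol peak at percentile 67.3 with no peak of the other lists within 4380 bp.

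All 11 genes of beta-oxidation had a peak at or near the start in every list, and 4 of them had the widest ranges in rank among the promoter regions shared by all lists. The acyl-CoA dehydrogenases take the first step, each for another chain length. Acadm, for medium chains, ranked at percentile 97.7 (EDL), 98.2 (Quad), 97.9 (Sol) and 96.9 (Dia). Acadvl, for very long chains, stood at 77.1, 89.2, 79.9 and 59.2. Acadl, for long chains, stood at 65.1, 92.7, 87.5 and 73.0, and an EDL peak at percentile 61.8 lay 443 bp downstream of its start, with peaks of the other lists within 235 bp. Acads, for short chains, had the lowest-ranked of these promoters, at 31.6 (EDL), 66.6 (Quad), 32.0 (Sol) and 55.1 (Dia).

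Decr1, which prepares unsaturated chains, had the same kind of spread. Its start region ranked at percentile 17.1 (EDL), 59.0 (Quad), 51.9 (Sol) and 50.6 (Dia). The authors' classes put it in the promoter in Quad and in exon 1 or the 5′ UTR in the other lists, since the centres lay between 86 and 164 bp downstream of the start. With Acadvl, Acadl and Acads, Decr1 made up the 4 of 29 promoter regions shared by all lists that spanned 25 percentile points or more, or 13.8%, against 20.6% of the 7760 such promoter regions of all genes. In each of the 4 the highest percentile was in Quad, the longest list, where the median over all promoter peaks was also highest, at 81.3. By score, Quad and Dia were close at Decr1 (7.56 and 7.55) and Acads (8.58 and 8.06). Quad and the next list, Sol, stood further apart at Acadvl (14.9 and 11.7) and Acadl (17.4 and 14.1). Acadl, with a span of 27.6 points, lay just inside the limit of 25 points and Cpt1a, with 24.5, just outside it.

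The trifunctional protein catalyses the later steps for long chains, and its subunit genes Hadha and Hadhb start back to back. The authors' nearest-gene rule gave the peak between them to Hadhb in EDL, Quad and Dia and to Hadha in Sol. By name alone, Hadha therefore seemed open only in Sol. The peaks nevertheless joined into 1 region, at percentile 71.3 (EDL), 82.5 (Quad), 60.3 (Sol) and 73.0 (Dia), and by position both genes had a promoter peak in every list. The Sol peak overlapped only the Dia peak, and its centre lay nearer to Hadha. The 272 bases between the RefSeq starts, chr5:30154981-30155252 (mm10, plus strand, Hadha to the left and Hadhb to the right), are shown with the bases under the Sol peak in capitals.
Hadha-Hadhb: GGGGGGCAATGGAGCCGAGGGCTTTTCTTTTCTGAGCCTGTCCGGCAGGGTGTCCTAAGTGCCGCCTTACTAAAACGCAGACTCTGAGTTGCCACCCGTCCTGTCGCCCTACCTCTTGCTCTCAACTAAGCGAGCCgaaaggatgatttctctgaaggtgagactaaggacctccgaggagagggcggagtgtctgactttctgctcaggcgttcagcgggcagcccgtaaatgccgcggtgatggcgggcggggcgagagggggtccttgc

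The remaining genes of the spiral had narrower ranges in rank. Echs1, the short-chain enoyl-CoA hydratase, lay between percentile 80.5 in Dia and 89.8 in Quad, and Hadh, the short-chain hydroxyacyl-CoA dehydrogenase, between 59.5 in EDL and 72.6 in Quad. Acaa2, a thiolase that cleaves the shortened chain, lay between 92.1 and 95.7, and Eci1, an isomerase for unsaturated chains, between 94.2 and 95.8. The 3 electron transfer genes ranked as high. Etfdh, which passes the electrons to ubiquinone, lay between 98.75 in Sol and 99.6 in EDL, Etfb between 90.9 and 96.3, and Etfa between 88.3 and 93.1. The authors' promoter class named another transcript for 2 of these genes, 4930579G24Rik at Etfdh and Scarna17 at Acaa2. The peaks there were given to Etfdh and Acaa2 as nearest genes, and which start they belong to was not tested.

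Of the 8 genes of the lipid droplet, 7, 7, 7 and 4 had a promoter peak called in EDL, Quad, Sol and Dia. Over all protein-coding genes the shares were 40.2%, 44%, 40.1% and 39.4%. Pnpla2, the first lipase of triglyceride breakdown, had a promoter peak at percentile 82.1 in EDL, 85.0 in Quad and 82.3 in Sol and an intron peak at 78.8, 75.2 and 83.1. Dia had neither, and its nearest peaks lay 7372 and 8072 bp away. For scale, a count added after Pnpla2 had been seen took all promoter regions at or above percentile 75 in EDL, Quad and Sol. Of these 4066 regions, 75 had no Dia peak (1.84%) and 26 had none within 500 bp (0.639%), Pnpla2 being the 1 member among the latter. Of 1431 non-promoter regions taken in the same way, 137 had no Dia peak (9.57%) and 97 had none within 500 bp (6.78%). The Pnpla2 intron was again the 1 member among the latter. The limit of 75 was also set after these values had been seen, and the intron lay just above it in Quad. The Cpt1b promoter, at percentile 63.2 in EDL and likewise without a Dia peak, fell outside it. The 250 bases upstream of the RefSeq start, chr7:141454938-141455187 (mm10, plus strand), are shown with the bases under the peaks of EDL, Quad and Sol together in capitals.
Pnpla2: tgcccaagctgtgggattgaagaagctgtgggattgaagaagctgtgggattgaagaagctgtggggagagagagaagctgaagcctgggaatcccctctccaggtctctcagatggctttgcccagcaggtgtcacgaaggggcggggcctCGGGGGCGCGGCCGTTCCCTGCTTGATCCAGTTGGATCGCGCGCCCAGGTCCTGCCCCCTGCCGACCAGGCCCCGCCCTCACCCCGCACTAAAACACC

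The lipases that follow were called in more lists. Lipe, the hormone-sensitive lipase, had a promoter peak between percentile 83.0 in EDL and 92.6 in Quad. A second Lipe region ranked at 92.6 (EDL), 94.8 (Quad), 88.6 (Sol) and 92.2 (Dia). It lay 0.28 kb downstream of another Lipe start but was classed as non-coding, in the neighbouring transcript 4732471J01Rik, and so counted as non-promoter. A Quad peak at 74.0 lay 3.72 kb downstream of the first start, classed at the end of that transcript. No peak of the other lists lay within 3611 bp of it. Mgll, the monoglyceride lipase, had a promoter peak at 15.4 in EDL, 59.0 in Quad and 51.0 in Sol and none in Dia, where the nearest peak lay 6775 bp away. A Mgll intron region 7.52 kb downstream showed the other order, with 65.6 in Dia, 48.0 in Quad, 40.9 in EDL and no Sol peak. Mgll also had a Sol peak at 58.6 and a Quad peak at 55.7 in its introns, and the nearest peaks of other lists lay 7468 and 16941 bp away.

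The perilipins coat the droplet, and each had its own pattern. Plin2, which is found on droplets of most tissues, had a promoter peak between percentile 52.8 in Sol and 75.1 in Dia. Plin4 had a promoter peak in EDL (74.9) and Quad (80.8) only. Its intron region 0.908 kb downstream stood at 90.05 in EDL, 88.5 in Quad and 81.9 in Dia, although the Dia peak met the Quad peak by 1 base and did not overlap the EDL peak. Sol had no Plin4 peak, and the nearest lay 7570 bp from the promoter. A count added after its values had been seen took the 834 non-promoter regions of all genes at or above percentile 75 in the other 3 lists. Of these, 17 had no Sol peak (2.04%) and 5 had none within 500 bp (0.6%), the Plin4 intron being the 1 member among the latter. Plin5, which tethers droplets to mitochondria in oxidative tissues, had a single peak, at its promoter in Sol, with a score of 7.55 (95% Poisson interval 5.978 to 9.41) at percentile 53.7. The nearest Quad peak lay 2744 bp away. The 250 bases upstream of the Plin5 start nearest to that peak, chr17:56117549-56117798 (mm10, minus strand), are shown with the bases under the Sol peak in capitals.
Plin5: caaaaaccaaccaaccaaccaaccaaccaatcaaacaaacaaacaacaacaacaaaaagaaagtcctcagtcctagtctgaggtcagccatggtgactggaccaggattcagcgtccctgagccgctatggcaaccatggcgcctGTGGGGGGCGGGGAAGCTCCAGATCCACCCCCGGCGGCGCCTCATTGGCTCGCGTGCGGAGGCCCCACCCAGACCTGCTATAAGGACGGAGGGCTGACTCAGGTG

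The acyltransferases Dgat1 and Dgat2, which close triglyceride synthesis, both had a promoter peak in every list. Dgat1 ranked between percentile 94.1 in Dia and 98.2 in Quad, and Dgat2 between 69.0 in EDL and 79.4 in Quad. A Dgat2 intron region stood at 65.1 in EDL, 36.4 in Quad and 45.9 in Sol, and the nearest Dia peak lay 12388 bp away.

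Ucp3 and Pdk4 are known to be induced when fatty acids become the main fuel, as in fasting. Ucp3, a mitochondrial uncoupling protein of muscle, had 6 (EDL), 7 (Quad), 4 (Sol) and 3 (Dia) peaks. Among the 20000 best-scored peaks of each list, Ucp3 held 6, 5, 4 and 3. Its promoter ranked at percentile 70.2 (EDL), 65.8 (Quad), 62.5 (Sol) and 48.7 (Dia), and a region 1.92 kb downstream at 86.9, 86.2, 56.1 and 65.6. Regions 34.1 and 11.2 kb upstream of Ucp3 were called in EDL (37.0 and 50.7) and Quad (48.0 and 54.5) only, and both lay inside the neighbouring gene C2cd3. Pdk4, the kinase that blocks pyruvate entry, had promoter peaks at percentile 92.85 (EDL), 93.85 (Quad), 96.8 (Sol) and 89.3 (Dia). The Sol peak of Pdk4 was centred 0.126 kb upstream of the start and the region of the others 0.407 kb upstream, with 16 bp between them, so that they were counted apart.

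Regions were then compared as a set. Peaks of the 4 lists that overlapped by at least 1 bp were joined, which gave 137 regions for the 42 genes, 41 at promoters and 96 elsewhere. A peak in all 4 lists was found in 29 of the 41 promoter regions (70.7%), against 66.1% of all promoter regions, and in 26 of the 96 non-promoter regions (27.1%), against 16% of all. Of these 26, 15 spanned 25 percentile points or more (57.7%), against 56%.

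Of 15 possible sets of lists, 6 were counted for non-promoter regions, chosen after the regions had been seen. Regions called in EDL and Quad only numbered 12 of 96 (12.5%, against 9.57% of all), and those called in EDL, Quad and Sol numbered 8 (8.33%, against 9.15%). Regions called in EDL, Quad and Dia numbered 5 (5.21%, against 2.06%). Quad alone held 19 (19.8%, against 26.9%) and Sol alone 12 (12.5%, against 10.4%). Sol and Dia only held 5 (5.21%, against 1.34%), which lay at Cd36, Acsl5, Cpt1a, Acaa2 and Plin2. The highest rank among the 5 was that of Acsl5 in Dia, at percentile 45.3. When peaks within 500 bp were joined, 3 of 87 remained in Sol and Dia only, against 1.27% of all regions, and a Quad peak lay 8 bp from the Cpt1a region. Of the 36 regions called in 1 list, 9 lay within 500 bp of a peak of another list.

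**Figure D3:**
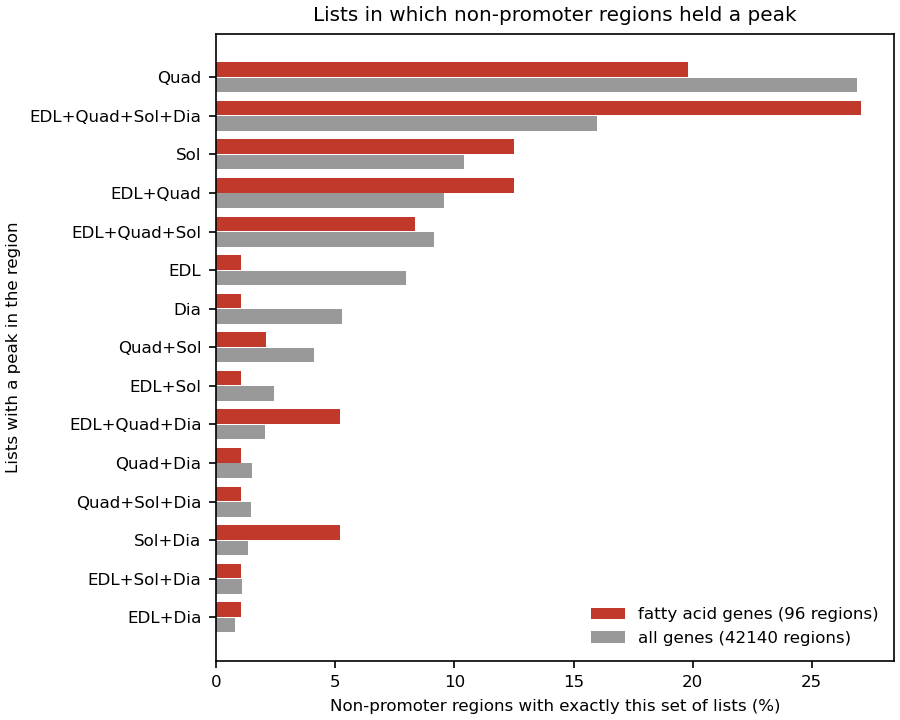
The bars give the percent of non-promoter regions that held a peak in exactly the named lists, in red for the 96 regions of the fatty acid genes and in grey for the 42140 regions of all genes. The red bar is longer than the grey bar for all 4 lists (27.1% against 16%) and for Sol with Dia (5.21% against 1.34%), and shorter for Quad alone (19.8% against 26.9%).

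The number of peaks was compared between muscles against the length of the lists. The 42 genes held 93 (EDL), 110 (Quad), 93 (Sol) and 72 (Dia) peaks, of which 36, 36, 36 and 30 were at promoters. As a share of the list this was 0.309% in EDL (95% Wilson interval 0.252% to 0.378%), 0.273% in Quad (0.226% to 0.329%), 0.323% in Sol (0.264% to 0.396%) and 0.334% in Dia (0.265% to 0.420%). When each list was cut to its 20000 best-scored peaks, the genes held 75, 75, 73 and 70 peaks. The excess of Quad in number was therefore not seen at equal list length, and the intervals of the 4 shares overlapped at either length.

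**Figure D4:**
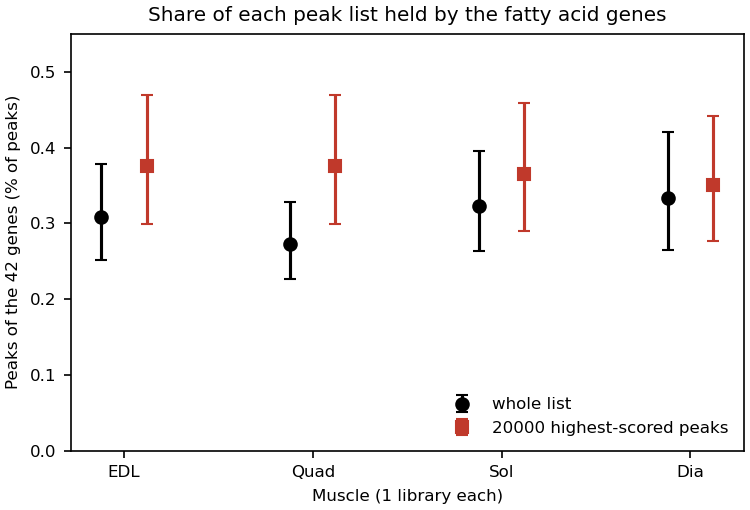
Points give the peaks of the 42 genes as a percent of each list, black for the whole list and red for the 20000 highest-scored peaks, and the bars are 95% Wilson intervals, which cover counting error only. The whole-list share is lowest in Quad, at 0.273%, and the shares at equal length lie between 0.35% and 0.375%.

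More peaks in Quad than in Sol were found for 13 of the 42 genes (31%), against 47.6% of all genes with a peak in either list, and more in Sol than in Quad for 8 (19%), against 13%. At 20000 peaks per list the counts were 9 against 23.1% of all genes and 7 against 23.4%. More peaks in EDL than in Sol were found for 8 genes, against 27.9%, and more in Sol than in EDL for 9, against 23.5%, or 9 against 21.8% and 8 against 22.2% at equal length. Between Sol and Dia, 17 genes (40.5%) had more in Sol, against 40%, and 2 (4.76%) had more in Dia, against 14.2%. At equal length these became 10 (23.8%) against 22.7% and 8 (19%) against 25.3%. At equal length the widest gap between the 42 genes and all genes was that for more peaks in Sol than in Quad, 16.7% against 23.4%.

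The sequences under the peaks were searched for the sites of receptors that bind genes of fatty acid metabolism. The DR1 element, bound by PPAR with its partner RXR, was written as AGGTCA, any base and AGGTCA again, on both strands with up to 2 mismatches. The element of oestrogen-related receptors (ERR) was written as TCAAGGTCA, and a shorter nuclear receptor site, AAGGTCA, is contained in it. A match describes letters and not binding.

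DR1 matches lay in a larger share of the promoter regions of the group than of all promoters. They were found in 6 of 41 promoter regions (14.6%), against 2.51% of all, and in 9 of 96 non-promoter regions (9.38%), against 4.48%. Peak by peak, the share was 9.68% in EDL (95% Wilson interval 5.175% to 17.4%), 7.27% in Quad (3.73% to 13.7%), 11.8% in Sol (6.73% to 19.95%) and 15.3% in Dia (8.75% to 25.3%), against 3.12%, 2.85%, 2.91% and 3.81% of all peaks. Peaks of different lists at 1 region hold the same site, so the 4 shares are not independent. With up to 1 mismatch, the members kept only 1 of 41 promoter regions (2.44%, against 0.392% of all) and 1 of 96 others (1.04%, against 0.494%). The exact ERR motif was in no promoter region of the group and in 2 of 96 others (2.08%, against 0.579%), in the Acacb intron region and at Fabp3. The shorter site lay in 7 of 93 EDL peaks (7.53%, against 4.78%), 9 of 110 in Quad (8.18%, against 4.18%), 5 of 93 in Sol (5.38%, against 4.47%) and 6 of 72 in Dia (8.33%, against 4.62%).

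**Figure D5:**
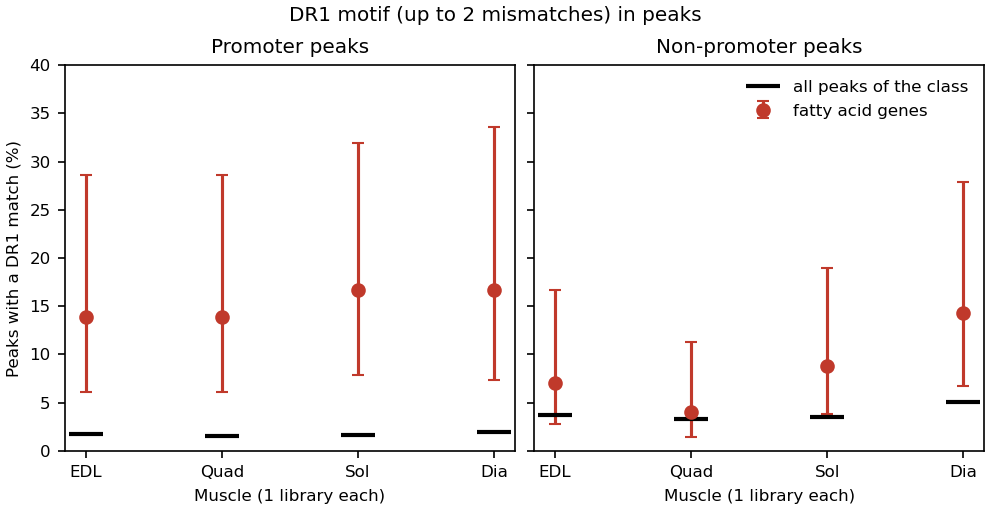
Red points give the percent of the peaks of the fatty acid genes with a DR1 match (up to 2 mismatches), with 95% Wilson intervals, and black marks the percent over all peaks of the class, for promoter peaks on the left and others on the right. At promoters the members lie between 13.9% and 16.7% and all peaks between 1.57% and 1.95%, and away from promoters the interval holds the value of all peaks in EDL and Quad.

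The matches below are printed in the orientation of the motif with 8 bases on either side, the match in capitals, and are a subset of the matches behind the DR1 and ERR counts, namely 7 of the DR1 matches, chosen to cover several roles and muscles, and both ERR matches. Acadvl had 1 mismatch (chr11:70015348-70015360, minus strand), under peaks of Quad, Sol and Dia. The EDL peak of the same promoter region began at 70015366, just past the match. Slc25a20 (chr9:108662142-108662154, plus) and Etfa (chr9:55512308-55512320, plus) had 2 mismatches under promoter peaks of all lists. The Cd36 match (chr5:17835947-17835959, plus) lay in the promoter called in EDL and Sol. The Mgll match was exact (chr6:88717550-88717562, minus) and lay only under the Dia peak of a region that all lists shared. The Mlycd match (chr8:119399452-119399464, plus) lay in the intron peak called in Sol alone, and the Plin2 match (chr4:86690272-86690284, plus) in the region of Sol and Dia. The ERR matches lay in Acacb (chr5:114175671-114175679, plus), under peaks of EDL and Dia, and 1.85 kb upstream of Fabp3 (chr4:130306841-130306849, minus), under peaks of EDL and Quad. At Acacb the Sol and Quad peaks began inside the match, at 114175672 and 114175677. At Fabp3 the Dia peak began at 130306850, just past the match. The lists named for a match therefore also depend on where the fixed-width peaks were placed. All coordinates are mm10.
Acadvl DR1: aagagaagAGGTCAGTGGTCAagacttcg
Slc25a20 DR1: ctgaatgtAGGTGAAAGGTCGgcggagcc
Etfa DR1: ttgggagtAGGGCAAAGGTAAgggtgtgc
Cd36 DR1: atccaagtAAGTCAGAGGCCAgagaacca
Mgll DR1: ttgacagcAGGTCACAGGTCAgagctgcc
Mlycd DR1: cgtgtccaACGTCACATGTCAcagctgtc
Plin2 DR1: caaaaactAGGGCAAAGTTCAgagcctga
Acacb ERR: tcctaaacTCAAGGTCAggggcaga
Fabp3 ERR: tttctgatTCAAGGTCAcaggcttt

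RefSeq promoter windows, from 250 bases before to 50 after a start, were found for 34 of the 42 genes, as 42 windows. A peak of all 4 lists overlapped 24 of them (57.1%), against 32.4% of 21262 windows of protein-coding genes. DR1 was in 6 of the 42 windows (14.3%), against 3.31%. The member windows with peaks in all lists had a median CpG ratio, observed over expected, of 0.685, against 0.816 for all such windows. The GC content of these member windows, 60.7%, was near the 62.3% of the others.

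Other genes of lipid metabolism were counted for context. Of 63 further genes of the pathway, 39 (EDL), 45 (Quad), 37 (Sol) and 43 (Dia) had a promoter peak, and they held 102, 122, 87 and 81 peaks, or 71, 80, 66 and 78 at equal length. The largest ranges in number were at Vldlr, a lipoprotein receptor, with 8 (EDL), 10 (Quad), 7 (Sol) and 3 (Dia) peaks, and at Lpin1, a phosphatidate phosphatase, with 8, 12, 6 and 6. Gpam, the mitochondrial glycerol-phosphate acyltransferase, had 4, 6, 2 and 2, the kinase Pdk1 had 3, 3, 5 and 1, and the phosphatase Pdp1 had 2, 5, 1 and 3. Of 22 regulators of lipid genes, 15, 20, 17 and 17 had a promoter peak, and Ppargc1a, a coactivator of oxidative genes, held 6, 11, 11 and 9 peaks. Over all protein-coding genes the shares with a promoter peak were 40.2%, 44%, 40.1% and 39.4%. The 63 genes and the 22 regulators lay above these shares in every list. A high promoter share was therefore not particular to the 42 genes, of which 35, 36, 33 and 29 had a promoter peak.

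Markers of other cell types were counted in the whole lists and in the 20000 best-scored peaks of each. Over all protein-coding genes, 40.2% (EDL), 44% (Quad), 40.1% (Sol) and 39.4% (Dia) had a promoter peak. Of 12 adipocyte markers, 0, 2, 1 and 1 had a promoter peak in EDL, Quad, Sol and Dia, and they held 12, 18, 8 and 10 peaks, or 1, 5, 5 and 8 at equal length. Of 12 endothelial markers, 8, 11, 9 and 3 had a promoter peak, with 48, 54, 46 and 27 peaks, or 29, 25, 32 and 25 at equal length. The 10 macrophage markers had no promoter peak in any list and 6, 10, 2 and 2 peaks, or 2 in each list at equal length. The 10 fibroblast markers had 1, 1, 2 and 0 promoter peaks and 24, 30, 16 and 8 peaks, or 14, 11, 13 and 6 at equal length. In the whole lists, endothelial and fibroblast markers held fewest peaks in Dia, the shortest list, in which Lpl also held fewest. At equal length only fibroblast markers were fewest in Dia among these markers, endothelial markers were as few in Quad, and Lpl held 9, 7, 7 and 6 peaks. Fewest peaks in Dia were not particular to other cell types. The 16 myofibre genes held 33, 44, 39 and 23 peaks, or 28, 29, 32 and 23 at equal length. The 22 regulators held 75, 98, 82 and 57, or 58, 56, 64 and 55. The 63 pathway genes, with 71, 80, 66 and 78 at equal length, were not fewest in Dia. Pparg is counted both as an adipocyte marker and as a regulator, and the adipocyte markers Plin1, Cidec and Cidea and the endothelial marker Gpihbp1 are also counted in the pathway. The part of these cells in the values of Lpl, Cd36 and Fabp4 was not tested.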

How the data were processed

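The authors pulverised frozen muscle, transposed its nuclei and aligned the reads to mm10 with Bowtie2. HOMER called fixed-width peaks in each library and annotated each peak to its nearest start site, with promoters from 1 kb upstream to 100 bp downstream. Neither a Tn5 shift of read ends nor removal of mitochondrial reads is given in the sources used here. The deposited lists give, per peak, the authors' score, a tag count scaled to library size. The study's legends give from 1 to 2 samples per group for the ATAC-seq of the 4 muscles, and 2 per group where its signal was compared between Quad and Sol. A pooled list may therefore combine replicates, and which of the deposited lists do so is not stated in the sources used here. All scores below 10 were whole multiples of 1 step per list within 0.0051, taken as the worth of 1 tag and used for Poisson intervals. The width of a peak (EDL 208, Quad 188, Sol 206 and Dia 232 bp) and the threshold differ between lists.

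Members were matched by gene name. The members, gene lists and motifs were chosen with earlier results of these data known, and all 42 members were to be named. Regions, percentiles and Wilson intervals were computed in Python 3.11.15 with pandas 2.3.3 and scipy 1.17.1, and the joining of regions was tested on simulated data. Start sites, promoter windows and sequences came from RefSeq (GRCm38.p6), the assembly behind mm10. The alternatives tried were equal list length, the upper 50% of each list, a limit of 50 kb, joining within 500 bp, 50% reciprocal overlap, promoters by position or within 1 kb on either side, and other motif settings. No p-value was computed, since each muscle had 1 library.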

Additional observations from a re-analysis of the deposited data

How the results depend on the processing

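No paired analysis was possible because each muscle had 1 library. Of 110 alternative values for 35 results, 78 stayed within the interval, or within 1.5 times, of the reported value. The share of each list held by the 42 genes became 0.405%, 0.372%, 0.417% and 0.445% in EDL, Quad, Sol and Dia in the upper 50% of the lists, and 0.375% (20000 peaks per list) or 0.335% (peaks within 50 kb) in Quad. Non-promoter peaks fell to 29, 41, 28 and 20 in the upper 50%, and to 41 in Quad and 37 in Sol at 20000 peaks. Per 1000 non-promoter peaks the values were 3.72, 3.56, 3.89 and 5.29 in the upper 50%, 3.57 in EDL and 3.59 in Quad at 20000 peaks, and 3.28 in Quad within 50 kb. The median promoter percentile was 61.5, 74.8, 67.6 and 66.05 in the upper 50%, and 74.6 in Quad at 20000 peaks, since percentiles were taken within the shortened list. Genes with more peaks in Sol than in Quad numbered 5 in the upper 50%. Regions called in every list were 27.85% under 50% reciprocal overlap, against 40.15%. In alternatives chosen after seeing the data, joining within 500 bp left 3 regions in Sol and Dia only, and DR1 with up to 1 mismatch lay in 0%, 0.909%, 1.08% and 2.78% of the member peaks. The ERR share in Dia was 0 in 200-bp windows, where 1 peak had held the match. With 25 to 36 tags at the lowest-scored peak, a region missing from a list may lie just under its threshold, and the depth cannot show that it was closed.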
